A study of Rattus norvegicus with 23 samples.

Results

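Differentiating CG4 cells that expressed the zinc finger protein Zfp488 were set directly against differentiating CG4 cells that expressed the homeodomain protein Nkx2.2, in 4 libraries each, 8 of the 23 libraries of the study. The libraries were assigned to the groups by their titles, and libraries with the same replicate number were treated as a pair. CG4 is an immortalised line that goes back to rat brain oligodendroglia. The Zfp488 cells carried pCAG-myc-Zfp488-IRES-EGFP and the Nkx2.2 cells pCAG-T7-Nkx2.2-IRES-EGFP, both brought in by transduction. A further 4 libraries of cells with the vector pCAG-IRES-EGFP, called control here, entered no test and only place the levels of the 2 groups. All these cultures had been expanded with bFGF and PDGF-AA and then kept for 3 days in SATO medium with high T3/T4 and CNTF. EGFP, thyroid hormone and CNTF were thus common to every group. CAG is a strong promoter that is active in most cell types, so the level of each factor was not set by its own gene. The labels do not give the species of the inserts, and they do not say whether transduced cells were selected or how many cells carried the vector.

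Nkx2.2 is a transcription factor of the ventral neural tube and of the oligodendrocyte lineage, best known as a repressor that recruits TLE (Groucho) corepressors. Zfp488 is a nuclear zinc finger protein found mainly in oligodendroglia. Oligodendrocyte progenitors divide in response to PDGF and FGF, leave the cell cycle, and then make the lipids and proteins of the myelin sheath, a step for which Sox10 and Myrf are central activators. Both factors have been linked to that step, and the direct comparison asks which transcripts differ between cells driven by either factor on the same day of differentiation.

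The libraries held 29906831 to 43307908 counts with Zfp488, 31112360 to 40854053 with Nkx2.2 and 39268564 to 49206479 in the control. Levels are given in CPM, counts scaled to the depth of each library with TMM factors over the 12 libraries, and 4 values are given in the order of replicates 1 to 4. Differences are log2, Zfp488 minus Nkx2.2, ± SE, from the paired fit of edgeR's quasi-likelihood test, and a gene is called where its Benjamini-Hochberg adjusted p lies under 0.05. The titles call the libraries biological replicates, and p-values measure only the spread between them. The oligodendroglial markers Olig1, Olig2, Sox10, Mbp and Cnp were present in every library.

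The gene Zfp488 stood at 121, 152, 159 and 185 CPM in the Zfp488 libraries, at 24.3, 23.5, 45.6 and 33 CPM in the Nkx2.2 libraries and at 31.5, 35.7, 54.2 and 35.5 CPM in the control. Its lowest Zfp488 library lay above every other library. The difference was 2.33 ± 0.13 (adjusted p = 2.49e-05). The gene Nkx2-2 stood at 162, 141, 132 and 84.6 CPM with Zfp488, at 1374, 1633, 1184 and 1837 CPM with Nkx2.2 and at 280.3, 282, 194 and 248 CPM in the control. All 4 Nkx2.2 libraries were far above the rest, and all 4 Zfp488 libraries were below all 4 control libraries. The difference was -3.55 ± 0.23 (adjusted p = 4.17e-05). Both groups matched their labels. Reads from an introduced insert and from the cell's own gene are counted together, so these values do not separate them.

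**Figure D1:**
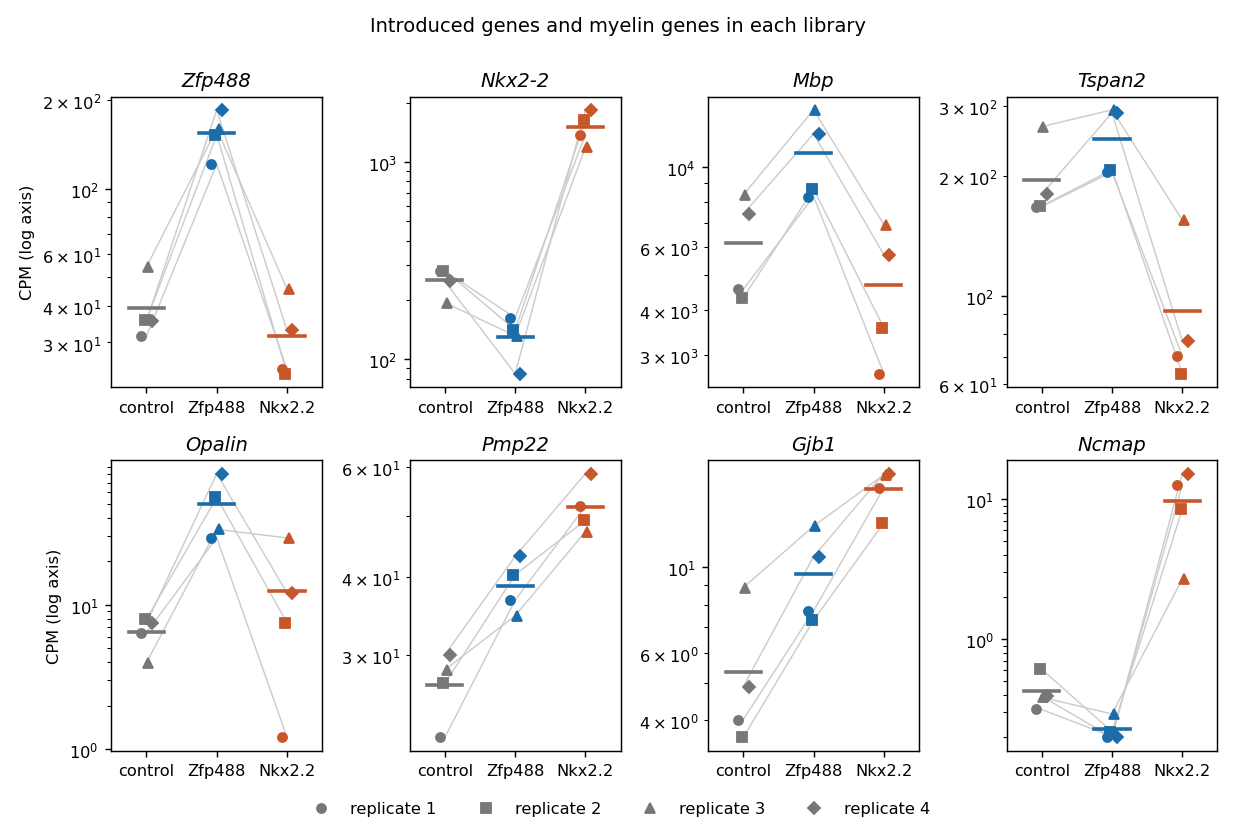
Levels in CPM on log axes of the introduced genes and of 6 myelin genes in the control, Zfp488 and Nkx2.2 libraries. Each point is a library, its shape gives the replicate number, grey lines join equal numbers and bars are group means. Mbp, Tspan2 and Opalin were higher with Zfp488, whereas Pmp22, Gjb1 and Ncmap were higher with Nkx2.2.

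NK2 homeodomain proteins are known to bind sites around the core AAGTG, with TNAAGTGG as the longer form. Windows from 250 bases before to 50 bases after the gene start were read on both strands from RefSeq promoters of the build GRCr8, which held 9389 of the tested genes by symbol. TNAAGTGG was present in 2.58% of those windows, in 2.75% of the windows of genes called higher with Zfp488 and in 2.9% of those called higher with Nkx2.2. The core AAGTG, which lies within the longer form, was present in 42%, 41.9% and 41.1%. Among called genes with a log2 difference of at least 1, TNAAGTGG was present in 16 of 426 windows (3.76%) higher with Zfp488 and in 12 of 351 (3.42%) higher with Nkx2.2. No test of these shares was made. Of 168 genes named by the rules of this comparison or in the text and found in the table, 5 held the longer form, Mia and Sema3c among them. Upstream windows of 250 bases are shown for 4 genes, so that windows with and without a match can be read side by side in both directions. Mia (higher with Nkx2.2) and Sema3c (higher with Zfp488) hold the longer form, and Wif1 (higher with Nkx2.2) and Adamts1 (higher with Zfp488) hold no core. Capitals mark every match to AAGTG or TNAAGTGG on either strand, and the sequences run 5′ to 3′ along the gene. The longer form begins 196 bases before the start in Mia, at chr1:91603020-91603269 on the minus strand, and 161 bases before it, on the opposite strand, in Sema3c, at chr4:18699628-18699877 on the minus strand. Wif1 is at chr7:58433329-58433578 on the plus strand and Adamts1 at chr11:38427385-38427634 on the minus strand. A match describes letters in a window and is not a bound site.
Mia: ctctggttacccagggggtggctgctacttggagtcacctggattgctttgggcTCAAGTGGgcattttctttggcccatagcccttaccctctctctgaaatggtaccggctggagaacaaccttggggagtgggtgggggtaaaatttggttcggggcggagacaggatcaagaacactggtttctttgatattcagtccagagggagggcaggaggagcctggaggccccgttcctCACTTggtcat
Sema3c: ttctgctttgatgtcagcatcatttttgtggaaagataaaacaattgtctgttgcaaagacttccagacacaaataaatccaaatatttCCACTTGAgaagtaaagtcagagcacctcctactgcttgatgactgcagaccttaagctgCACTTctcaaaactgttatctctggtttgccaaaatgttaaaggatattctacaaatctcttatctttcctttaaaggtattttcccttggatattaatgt
Wif1: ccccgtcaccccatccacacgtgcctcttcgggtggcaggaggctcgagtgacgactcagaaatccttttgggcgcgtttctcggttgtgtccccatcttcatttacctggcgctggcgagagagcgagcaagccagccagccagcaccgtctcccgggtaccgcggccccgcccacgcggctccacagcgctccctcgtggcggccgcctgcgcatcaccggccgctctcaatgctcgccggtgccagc
Adamts1: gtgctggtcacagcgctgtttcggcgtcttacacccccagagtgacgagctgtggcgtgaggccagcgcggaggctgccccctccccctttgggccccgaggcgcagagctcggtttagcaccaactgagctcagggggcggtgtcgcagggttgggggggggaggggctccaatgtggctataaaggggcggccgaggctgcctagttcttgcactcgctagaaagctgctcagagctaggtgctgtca

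Over all genes, 5836 of 14489 were called, which is 40.3%, with 3054 (21.1%) higher with Zfp488 and 2782 (19.2%) higher with Nkx2.2. Most of these differences were small. A log2 difference of at least 1 was reached by 1281 genes (8.84%), 679 higher with Zfp488 and 602 higher with Nkx2.2. The far end was uneven, since 27 genes exceeded a log2 difference of 4 with Nkx2.2 and 11 with Zfp488. The groups did not overlap in 3650 genes (25.2%), among them 3234 of the called genes. In 5611 called genes all 4 pairs differed in the same direction. Without the replicate block 3294 genes were called, 1766 and 1528, and 3292 of them were also called with it. TMM factors did not overlap between the groups, at 0.936 to 0.998 with Zfp488 and 1.03 to 1.08 with Nkx2.2. Scaling by library totals alone moved the median log2 difference of all genes from -0.01 to -0.14 and turned the split to 1981 higher with Zfp488 against 4688 higher with Nkx2.2.

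**Figure D2:**
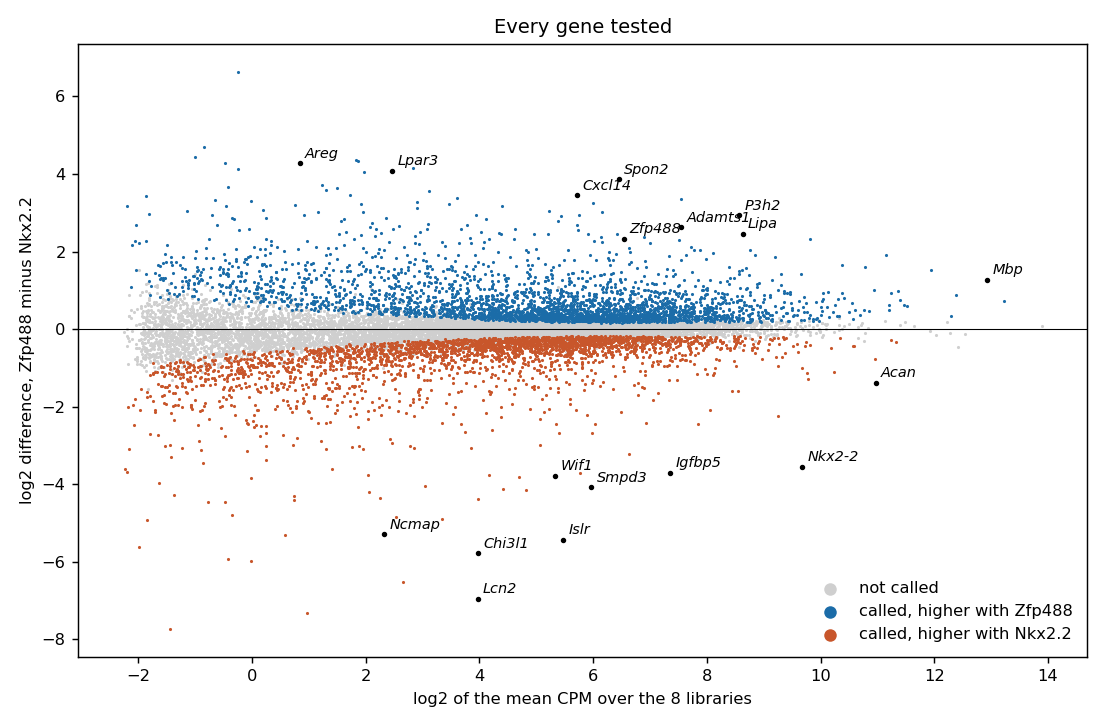
The log2 difference (Zfp488 minus Nkx2.2) of each of the 14489 genes tested against the log2 of its mean CPM over the 8 libraries. Coloured points are called genes, and a part of the genes of the text is labelled. The largest differences lie on the side of Nkx2.2, among them Lcn2 and Chi3l1.

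Libraries grouped by factor first, and the replicate numbers followed the same order within both groups. In the principal components of log2 CPM the leading axis (57.1% of the variance) separated the factors and the next axis (21.1%) ordered the numbers in the same way in both groups, with replicate 1 at its upper and replicate 3 at its lower end. Zfp488 replicate 1 and Nkx2.2 replicate 3 lay closest to the other group on the leading axis, at -20.35 and 15.84. The replicate number itself was called in 1667 genes (11.5%), and 1128 genes (7.79%) passed both tests. Adamts1, a secreted metalloprotease of proteoglycans, shows both. It stood at 434, 435, 136 and 286 CPM with Zfp488 and at 70.9, 71.5, 20.8 and 47.3 CPM with Nkx2.2. Replicate 3 was lowest in both groups, yet the 4 pair differences lay between 2.6 and 2.71, and the groups did not overlap. The difference was 2.63 ± 0.06 (adjusted p = 1.18e-06). Cd44, a hyaluronan receptor, stood at 224, 203, 67.4 and 157 CPM with Zfp488 and at 127, 135, 40 and 83.9 CPM with Nkx2.2, again lowest in replicate 3. Its groups overlapped and its difference of 0.77 ± 0.07 was called with the pairing (adjusted p = 0.000166) and not without it (1.58e-17 to 0.221 over the 12 alternatives, the highest without the block). The endopeptidase Mipep (0.94) and the lysosomal protease Ctsl (1.0) also lost their calls without the block (adjusted p 1.08e-31 to 0.079 and 2.76e-35 to 0.093 over the alternatives, the highest without it). Prickle1, Adam11 and Ptpn9 differed between numbers but were not called between factors, at 0.2, -0.15 and 0.15. In Adam11, replicate 3 stood at 760.1 CPM with Zfp488 and 868 CPM with Nkx2.2, above every other library of its group. What a replicate number marks is not stated.

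**Figure D3:**
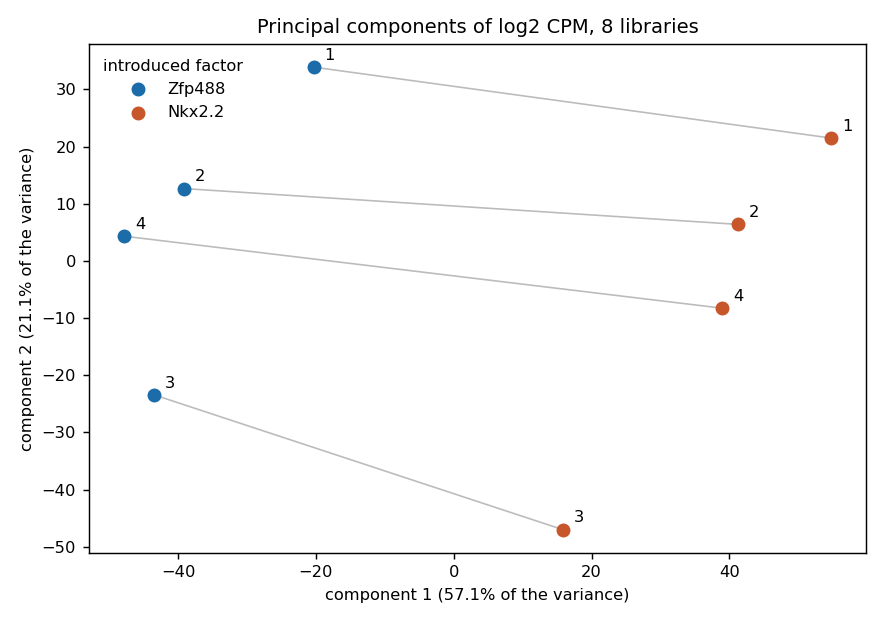
Leading principal components of log2 CPM of the 8 libraries, with replicate numbers beside the points and grey lines between libraries of the same number. Component 1 separates Zfp488 from Nkx2.2 and component 2 orders the numbers alike in both groups.

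Genes with large differences on the side of Zfp488 had various roles. Lpar3, a receptor for lysophosphatidic acid, stood at 4.19, 8.81, 12.2 and 16.2 CPM with Zfp488 and at 0.118, 0.469, 0.877 and 1.12 CPM with Nkx2.2, a difference of 4.08 ± 0.19 (adjusted p = 1.56e-05). Every Zfp488 library was above every Nkx2.2 library, a condition by which the genes with the largest differences were chosen. The matrix protein Spon2 reached 57.7, 149.5, 117 and 327 CPM against 2.41, 8.2, 24.3 and 13.8 CPM, and the chemokine Cxcl14 127, 119, 31.9 and 105 CPM against 13.6, 12, 3.32 and 6.34 CPM. In Cxcl14 replicate 3 was lowest in both groups, and the difference of 3.46 ± 0.14 held in each pair. Further genes with large differences were Baalc (3.28), the matricellular protein Nov (3.25), the sulfotransferase Chst8 (3.24), the vasodilator peptide Adm (3.17), Armc4 (3.11), the drug efflux pump Abcb1b (3.05) and the extracellular superoxide dismutase Sod3 (3.01). Among abundant genes P3h2, a collagen prolyl hydroxylase, stood at 619.7, 764, 295 and 1016 CPM against 92.9, 88.3, 47.8 and 105 CPM, a difference of 2.94 ± 0.11. Tubb3, a neuronal beta-tubulin, stood at 308, 419, 252 and 395 CPM against 65.9, 91.6, 68.9 and 85.5 CPM, and Chn2, a GTPase-activating protein of Rac, at 474, 695, 803 and 910.1 CPM against 117, 174, 267 and 232 CPM. Thrb, a nuclear receptor for the thyroid hormone in the medium, was also higher, at 102, 114, 77 and 108 CPM against 36.9, 47, 28.6 and 40.4 CPM (1.4 ± 0.06, adjusted p = 1.43e-05).

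The largest differences on the side of Nkx2.2 were in genes that were low with Zfp488. Lcn2, a siderophore-binding acute phase protein, stood at 35.1, 28, 16.2 and 44.8 CPM with Nkx2.2 and at 0.436, 0.218, 0.175 and 0.17 CPM with Zfp488. Its difference was -6.95 ± 0.21 (adjusted p = 3.55e-06), with no overlap. Chi3l1, a secreted chitinase-like protein, stood at 28.7, 34, 21.8 and 39.1 CPM against 0.536, 0.266, 0.583 and 0.905 CPM. The leucine-rich repeat protein Islr (-5.43), the lectin Clec3a (-4.89), the ferritin receptor Scara5 (-4.84) and osteopontin, Spp1 (-4.04), followed the same order. Abundant genes on this side included Smpd3, neutral sphingomyelinase, at 94.9, 108, 124 and 146 CPM against 6.9, 6.29, 7.06 and 7.41 CPM. The groups stood far apart, and the difference was -4.08 ± 0.1 (adjusted p = 1.18e-06). Igfbp5, a binding protein of insulin-like growth factors, stood at 303, 243, 232 and 433 CPM against 34.3, 19.2, 18.3 and 21 CPM, and Pgc, a pepsinogen, at 118, 78.2, 77 and 135 CPM against 9.05, 6.49, 7.0 and 7.78 CPM. Sirpa, the receptor of the "don't eat me" signal CD47, stood at 96.1, 85.6, 63.5 and 90.3 CPM against 20.2, 20.5, 18.3 and 18.4 CPM, and the small membrane protein Nnat at 174, 161, 192 and 175 CPM against 61.4, 66.7, 60.8 and 55.3 CPM. None of these groups overlapped, which held for 25.2% of all genes. The genes with the largest differences were chosen only among genes without overlap, so for them it was set by the choice.

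Most called genes of central myelin were higher with Zfp488, while Pmp22 and Ncmap, which are best known from Schwann cells, were higher with Nkx2.2. Of 24 structural myelin genes tested, 13 (54.2%) were called higher with Zfp488 and 7 (29.2%) with Nkx2.2, against 21.1% and 19.2% over all genes. The median log2 difference was 0.35 against -0.01 over all genes. Mbp, myelin basic protein, stood at 8264, 8656, 14361 and 12326 CPM with Zfp488 and at 2669, 3581, 6906 and 5702 CPM with Nkx2.2. The lowest Zfp488 library was above the highest Nkx2.2 library, and the paired difference was 1.27 ± 0.11 (adjusted p = 0.000155). Opalin, a membrane protein of central myelin, stood at 29.1, 55.2, 33.2 and 80.8 CPM against 1.2, 7.47, 29 and 12 CPM. Its lowest Zfp488 library lay only just above Nkx2.2 replicate 3, and the pair difference was 4.54 in replicate 1 and 0.2 in replicate 3. Tspan2, Mobp, Cnp, Pllp, Bcas1, Cd9 and Cldn11 were also called in this direction. Of these, Tspan2 and Bcas1 kept the call under all 12 alternatives. Pllp lost it under 8 of them (adjusted p 0.0294 to 0.124), among them DESeq2 and each replicate number left out, Cldn11 under 5, Mobp and Cd9 under 4 each and Cnp under 1. Mag, the myelin-associated glycoprotein, differed by 1.0 ± 0.1, and Mog, on the outer face of myelin, by 0.93 ± 0.19. The calls of Mag, Mog and Opalin were lost without the block, and that of Opalin also without the libraries of replicate 2. Their adjusted p over the 12 alternatives was 1.01e-22 to 0.107, 0.000394 to 0.187 and 0.00014 to 0.0786, highest without the block. Without it 5 myelin genes were called higher with Zfp488.

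Pmp22, peripheral myelin protein 22, stood at 51.9, 49.3, 47.2 and 58.5 CPM with Nkx2.2 and at 36.7, 40.3, 34.6 and 43.1 CPM with Zfp488, a small difference of -0.42 ± 0.06 with tight groups. Gjb1, the gap junction protein connexin 32 of Schwann cells and oligodendrocytes, stood at 16.1, 13.1, 17.4 and 17.5 CPM against 7.71, 7.29, 12.8 and 10.7 CPM. Ncmap, a membrane protein of non-compact Schwann cell myelin, stood at 12.7, 8.51, 2.69 and 15.3 CPM against 0.201, 0.218, 0.292 and 0.198 CPM, with its lowest Nkx2.2 value in replicate 3. The receptor Gpr37 (-1.28), Omg (-2.06) and Cmtm5 (-0.89), which are oligodendrocyte genes, were higher with Nkx2.2 too, so this side was not made of Schwann cell genes only. Without the block the same number, 7, was called higher with Nkx2.2. Plekhb1, Pmp2 and Enpp6 were among those not called.

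Of 19 Schwann cell and neural crest markers tested, 8 (42.1%) were called higher with Zfp488 and 7 (36.8%) higher with Nkx2.2. Over all genes these shares were 21.1% and 19.2%. The median was -0.05, and without the block the counts were 5 and 7. Higher with Zfp488 were the crest transcription factor Tfap2a (1.85 ± 0.17), the neuregulin receptor Erbb3 (0.94 ± 0.09), Tfap2b, Ngfr, Egr2, Prx, Cdh19 and Sox10. Among those higher with Nkx2.2 were Ncmap, Mia, L1cam, Dhh, Ncam1 and Pmp22. The markers did not share a direction. Their summed level was 3756 to 3905 CPM with Zfp488, 3108 to 3741 CPM with Nkx2.2 and 3530.1 to 3852 CPM in the control. The part of other cell types in the myelin differences was not tested. In RNA from whole cultures, fewer cells of a type and less RNA per cell cannot be told apart.

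Genes of later oligodendrocyte stages were mostly higher with Zfp488. Of 36 mature genes tested 22 (61.1%) were higher with Zfp488 and 5 (13.9%) higher with Nkx2.2 (median 0.32). Of 22 genes of committed cells 12 (54.5%) and 2 (9.09%) were (median 0.35), against 21.1% and 19.2% over all genes. Without the block these counts were 10 and 4, and 7 and 1, and without the libraries of replicate 2 those of the mature genes were 14 and 4. Tppp, a tubulin polymerisation protein of oligodendrocytes, stood at 56.1, 79.1, 118 and 134 CPM with Zfp488 and at 29.2, 39.8, 49.3 and 51.2 CPM with Nkx2.2. Its groups did not overlap, and the difference was 1.15 ± 0.09 (adjusted p = 7.85e-05). Fyn, the kinase that couples axon contact to myelin protein synthesis, stood at 1207, 1179, 1519 and 1299.7 CPM against 718, 689, 955 and 794 CPM, and Rras2, a small GTPase of committed cells, at 230.4, 437, 433 and 594 CPM against 36.1, 92, 224 and 157 CPM. Neither overlapped, although the Rras2 pair of replicate 3 differed by 0.95 and that of replicate 1 by 2.67. Parvb, an integrin-linked adaptor (1.0), Arpc1b, a subunit of the Arp2/3 actin complex (0.86), and the sialidase Neu4 (2.85) were called as well. Il33 (1.44), Ppp1r16b (1.01) and Nfasc (0.62), a cell adhesion protein of the node of Ranvier, were called only with the block. Their adjusted p over the alternatives was 9.32e-37 to 0.0768, 1.89e-23 to 0.0539 and 3.15e-19 to 0.0965, highest without it. The 5 mature genes higher with Nkx2.2 were Apod, Adssl1, S100b, Kif5a and Gal3st1, and the 2 committed genes Pik3r3 and Bmp4. Apod, a lipid-binding apolipoprotein of mature cells, stood at 153, 188, 197 and 280.1 CPM against 51.9, 36.1, 29.9 and 34.5 CPM (-2.42 ± 0.22, adjusted p = 0.000149).

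**Figure D4:**
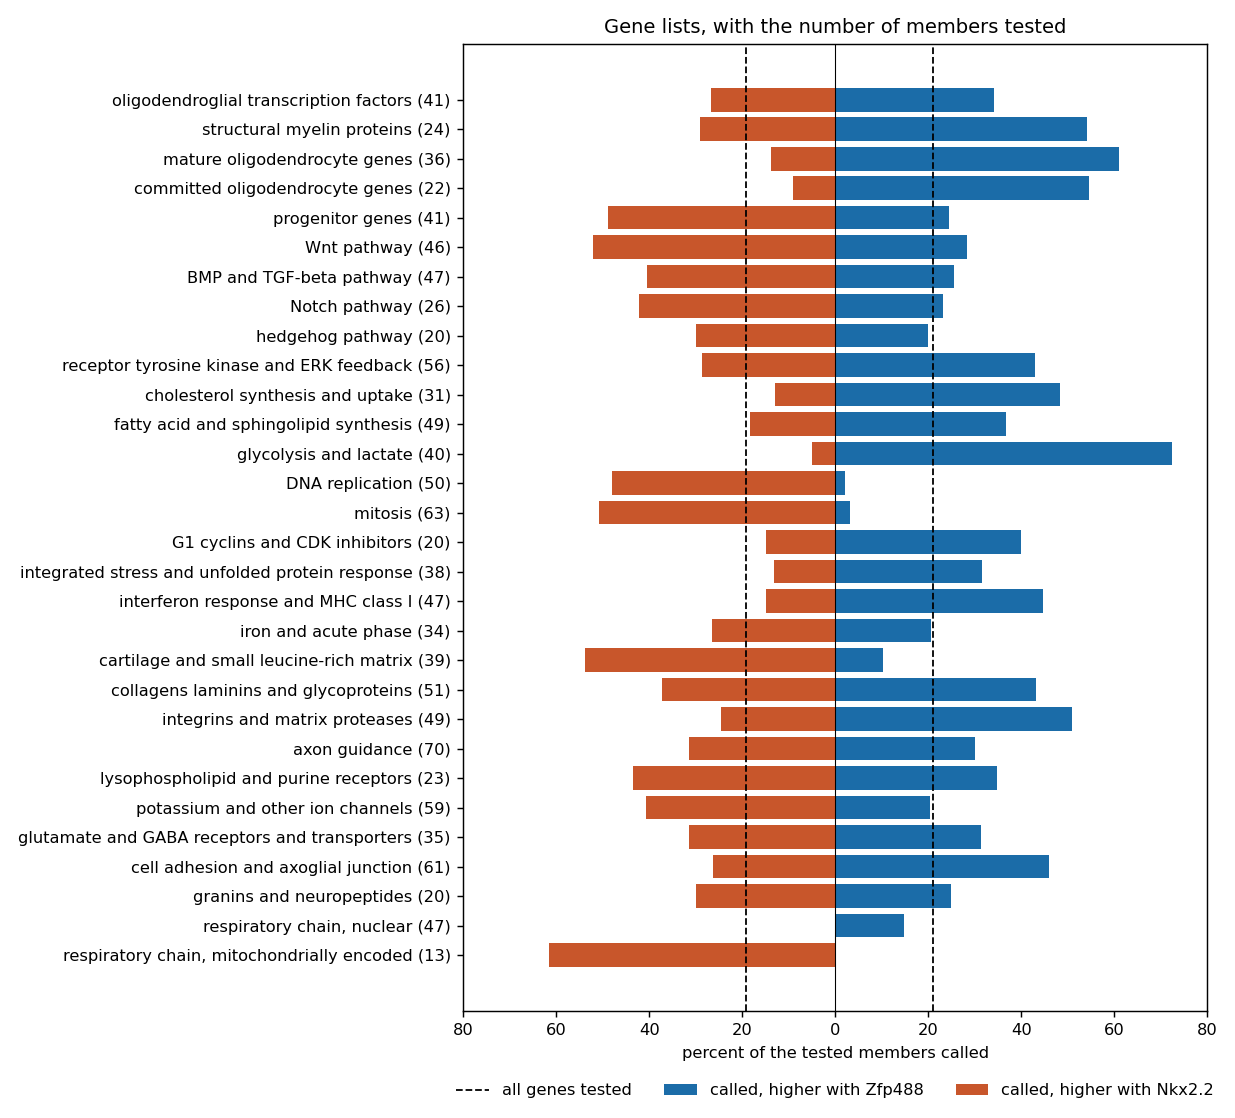
Percent of the tested members of each gene list called higher with Zfp488 (right) or with Nkx2.2 (left), with the number tested in brackets. Dashed lines show the same over all genes, 21.1% and 19.2%. Glycolysis and lactate lies furthest to the right, and DNA replication, mitosis, cartilage matrix and the mitochondrially encoded subunits lie to the left.

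Transcription factors of the lineage split between the groups. Of 41 tested, 14 (34.1%) were higher with Zfp488 and 11 (26.8%) higher with Nkx2.2, against 21.1% and 19.2% over all genes. The median of 0.05 turned to -0.08 when libraries were scaled by their totals. Without the block the counts were 7 and 4, with library totals they were 10 and 14, and without the libraries of replicate 2 they were 9 and 7. Olig1, a basic helix-loop-helix factor of oligodendroglia, stood at 272, 197, 215 and 180.3 CPM with Zfp488 and at 318, 347, 509 and 335 CPM with Nkx2.2, without overlap (-0.79 ± 0.14, adjusted p = 0.00385). Nkx2.2 replicate 3 was the highest library. Its neighbour Olig2 stood at 325, 256, 340.4 and 273 CPM against 304, 331, 519 and 344 CPM and was not called (-0.3 ± 0.11, adjusted p = 0.0565, 0.00923 to 0.22 over the alternatives). Sox10 differed little, at 1511, 1662, 1739 and 1713 CPM against 1231, 1311, 1643 and 1356 CPM (0.27 ± 0.07, adjusted p = 0.0236), and its call was lost under 5 of the 12 alternatives, with an adjusted p of 0.00188 to 0.179. Myrf, the activator of myelin genes, stood at 793, 955, 1244 and 1223 CPM against 388, 565, 804 and 679.9 CPM. Its groups overlapped in 1 library each, and the paired difference was 0.82 ± 0.08 (adjusted p = 0.000231). Sox5, which is known to hold back terminal differentiation, stood at 37.3, 31.6, 22 and 38 CPM with Nkx2.2 and at 6.6, 4.77, 4.93 and 4.61 CPM with Zfp488, a difference of -2.61 ± 0.15. Myt1, a zinc finger factor of progenitors, was higher with Nkx2.2 as well (-1.2 ± 0.14). The homeobox genes Dlx2, which is typical of interneuron precursors, and Prrx1, linked to quiescent progenitors, were higher with Zfp488, at 1.54 ± 0.17 and 1.91 ± 0.21.

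Progenitor genes leaned to Nkx2.2 in counts and median, but not in summed level. Of 41 tested, 20 (48.8%) were higher with Nkx2.2 and 10 (24.4%) higher with Zfp488, against 19.2% and 21.1% over all genes. The median was -0.22. The summed level of the 41 genes was 8772 to 9198 CPM with Zfp488, 7670 to 8957 CPM with Nkx2.2 and 8419 to 9560 CPM in the control. Counts were 16 and 4 without the block, 21 and 6 with library totals, and 18 and 6 without the libraries of replicate 4. Cspg4, the NG2 proteoglycan, stood at 4.1, 5.34, 2.66 and 7.79 CPM with Nkx2.2 and 2.78, 1.67, 0.933 and 1.78 CPM with Zfp488. The groups overlapped by 1 library each, and the difference was -1.46 ± 0.25 (adjusted p = 0.00296). Id4, an inhibitor of helix-loop-helix factors that delays differentiation, stood at 86.4, 70.9, 48.9 and 69.7 CPM against 29.3, 26.2, 18.1 and 29.7 CPM, and Cdo1, cysteine dioxygenase, at 15.6, 16.4, 17.1 and 18.2 CPM against 4.12, 4.21, 5.6 and 4.02 CPM. Both kept their groups apart. Pdgfra, the PDGF receptor of progenitors, went the other way, at 420.5, 464, 272 and 377 CPM with Zfp488 and 434, 329.9, 217 and 221 CPM with Nkx2.2. Its difference of 0.39 ± 0.12 (adjusted p = 0.0314) was lost under 4 of the 12 alternatives (adjusted p 0.00741 to 0.304), and the pair of replicate 1 differed by -0.05.

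Most genes of the glycolysis and lactate list were higher with Zfp488, and that list also holds genes of the hypoxia response such as Vegfa. Of 40 tested 29 were higher with Zfp488, a share of 72.5% against 21.1% over all genes, and 2, Ldhb and Hk1, were higher with Nkx2.2. The median was 0.61, and 0.47 with libraries scaled by their totals, with counts of 26 and 5. Ldha, which makes lactate from pyruvate, stood at 3244, 3615, 3545 and 3517 CPM with Zfp488, at 1382, 1920, 2016 and 1805 CPM with Nkx2.2 and at 2972, 3194, 2916 and 2813 CPM in the control. The Nkx2.2 libraries lay below all others, and the difference was 0.98 ± 0.09 (adjusted p = 0.000165). Pfkm, the phosphofructokinase of muscle type, was again lowest with Nkx2.2, at 142, 169, 181 and 173 CPM, 86.2, 89.4, 101 and 85.2 CPM and 152, 185, 181 and 188 CPM. Slc16a1, the monocarboxylate transporter through which oligodendrocytes pass lactate, differed by 0.81 ± 0.08, but here the control at 171, 179, 209 and 185 CPM lay with Nkx2.2. Vegfa, an angiogenic factor of the hypoxia response, stood at 466, 737, 1337 and 919.8 CPM against 220.4, 328, 695 and 360.1 CPM. It was highest in replicate 3 of both groups, and its call was lost without the block (adjusted p 3.12e-37 to 0.0719 over the alternatives, highest without it). Car9, a carbonic anhydrase of hypoxic cells, stood at 1.71, 8.74, 28.7 and 23 CPM against 0.0943, 0.492, 5.83 and 0.785 CPM, with 3.56 ± 0.4 and an adjusted p of 0.000376 (7.45e-11 to 0.0719 over the alternatives, the highest without the block). Both genes overlapped between the groups.

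Subunits of the respiratory chain did not follow. Of 47 nuclear genes tested, 7 were higher with Zfp488 and 0 higher with Nkx2.2, a smaller share than the 40.3% over all genes, and the median was 0.06 (3 and 0 without the block, 0 of each without the libraries of replicate 2, and 4 and 0 without those of replicate 4). Ndufs4, a subunit of complex I, differed by 0.32 ± 0.07. Scaled by library totals, 0 of these 47 were higher with Zfp488 and 8 higher with Nkx2.2, so this list has no direction that holds under both scalings. All 13 mitochondrially encoded genes were tested, and 8 (61.5%) were higher with Nkx2.2, against 19.2% over all genes. The median was -0.31. Counts were 10 with library totals, 4 without the block and 5 without the libraries of replicate 4. Mt-nd5, a complex I subunit, stood at 1582, 1774, 2064 and 1635 CPM with Nkx2.2 and at 1196, 1424, 1402 and 1195 CPM with Zfp488, without overlap (-0.43 ± 0.07, adjusted p = 0.00258). Mt-nd4l differed by -0.48 ± 0.08. The part of RNA quality or of mitochondrial content in these values was not tested.

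Genes of lipid synthesis leaned to Zfp488, with clear exceptions. Of 31 cholesterol genes tested, 15 (48.4%) were higher with Zfp488 and 4 (12.9%) higher with Nkx2.2. The median was 0.2. Counts were 6 and 2 without the block, 10 and 8 with library totals and 10 and 2 without the libraries of replicate 2. Insig1, the sterol-regulated anchor of SREBP, stood at 349, 611, 1038 and 688 CPM with Zfp488 and at 204, 228, 493 and 250.03 CPM with Nkx2.2, overlapping through Nkx2.2 replicate 3 (1.18 ± 0.11, adjusted p = 0.000193). Tm7sf2, a sterol reductase, differed by 0.67 ± 0.06. Scap (-0.21) and Mvk (-0.21) went the other way by little, and Apoe and Abcg1, which serve cholesterol transport out of cells, by more. Apoe, the main lipid carrier of the brain, stood at 96.5, 115, 133 and 96 CPM with Nkx2.2 and at 30.7, 17.8, 17.9 and 15.9 CPM with Zfp488 (-2.45 ± 0.19, adjusted p = 8.65e-05). Abcg1, a cholesterol efflux pump, stood at 18.7, 25.4, 23.6 and 36.4 CPM against 8.38, 6.87, 7.03 and 6.51 CPM, again without overlap. Of 49 fatty acid and sphingolipid genes 18 (36.7%) were higher with Zfp488 and 9 (18.4%) with Nkx2.2, against 21.1% and 19.2% over all genes. The median of 0.11 turned to -0.02, and the counts to 16 and 15, with library totals (11 and 6 without the block). Fads1, a fatty acid desaturase, stood at 686, 978, 1734 and 1289.6 CPM against 302, 360.2, 727 and 378 CPM, and Kdsr, an early enzyme of ceramide synthesis, at 64.3, 71.8, 54 and 82 CPM against 23.8, 27.5, 28.3 and 29.6 CPM. Only Fads1 overlapped, by Nkx2.2 replicate 3. Sphk1, which makes sphingosine 1-phosphate, was higher with Nkx2.2 (-1.03 ± 0.08), as was Smpd3, described above.

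The proliferation genes that were called were nearly all higher with Nkx2.2. Of 50 DNA replication genes tested 24 (48%) were higher with Nkx2.2 and 1, Fen1, higher with Zfp488 (median -0.34). Of 63 mitosis genes 32 (50.8%) were higher with Nkx2.2 and 2, Cdca5 and Ncaph, higher with Zfp488 (median -0.4). Over all genes 19.2% were higher with Nkx2.2 and 21.1% with Zfp488. Mki67, the Ki-67 antigen, stood at 114, 117, 90.2 and 79.4 CPM with Nkx2.2, at 59.8, 74.3, 44.4 and 64.1 CPM with Zfp488 and at 66.8, 82.6, 71.9 and 72.8 CPM in the control. The factor groups did not overlap, and the control lay between their means (-0.73 ± 0.11, adjusted p = 0.00164). Chaf1a, a histone chaperone of replication, stood at 69.4, 62.3, 51.2 and 51.6 CPM against 47.1, 43.4, 31.1 and 36.2 CPM, and the replicative helicase subunit Mcm4 at 69.1, 70.8, 60.1 and 59.7 CPM against 50.7, 55, 35.3 and 43.1 CPM. Both kept their groups apart, as did the polymerase subunit Pole (-0.71 ± 0.09), the kinetochore motor Cenpe (-0.68 ± 0.09) and the separase Espl1 (-0.65 ± 0.09). Top2a, topoisomerase of dividing cells, stood at 175, 179.9, 183 and 132 CPM against 108, 152, 96.8 and 122 CPM. It overlapped, and its call was lost without the libraries of replicate 1 (adjusted p 0.0016 to 0.0692 over the alternatives, highest there). With library totals the counts were 41 and 0 for replication and 47 and 0 for mitosis. The call of Fen1 was lost under 5 of the 12 alternatives. Without the block the counts were 14 and 0 for replication and 22 and 0 for mitosis. Without the libraries of replicate 1 they were 15 and 0, and 15 and 1, and without those of replicate 2 the mitosis counts were 22 and 0. The differences were small, and no called gene of either list reached a log2 difference of 1.

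Gadd45a and Gadd45b, of the list of G1 cyclins and inhibitors, held larger single differences, on the side of Zfp488. Of 20 genes of the G1 cyclin and inhibitor list 8 (40%) were higher with Zfp488, against 21.1% over all genes. Higher with Nkx2.2 were 3 (15%), Ccnd2, Rbl1 and Cdk2, against 19.2%. Counts were 6 and 0 without the block, 5 and 4 with library totals and 4 and 1 without the libraries of replicate 2. Gadd45a, a stress-induced growth arrest gene, stood at 70.2, 152, 197 and 220.2 CPM with Zfp488 and at 21.7, 24.8, 69.6 and 38.8 CPM with Nkx2.2. The lowest Zfp488 value only just exceeded the highest Nkx2.2 value, of replicate 3, and the difference was 2.08 ± 0.19 (adjusted p = 0.000149). Gadd45b differed by 1.07 ± 0.1. Cdkn1a, the p21 inhibitor, stood at 111, 158, 159.5 and 217 CPM against 54.5, 87.3, 139 and 122 CPM, with a pair difference of only 0.2 in replicate 3. Its call was lost without the block (adjusted p 3.87e-07 to 0.122 over the alternatives), as was that of Ccnd2 (-0.44, adjusted p 6e-07 to 0.0982), both highest without it. Phlda3, Fas, Gdf15 and Ccng1 were named through a list other than that of G1 cyclins and inhibitors. Phlda3, a repressor of Akt, stood at 150.4, 225, 156 and 309 CPM against 24.2, 43.5, 64.6 and 51.8 CPM (2.22 ± 0.21, adjusted p = 0.000188). Fas, a death receptor, differed by 1.5 ± 0.15, the stress cytokine Gdf15 by 1.81 ± 0.17 and Ccng1, cyclin G1, by 0.72 ± 0.07.

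Matrix genes separated into kinds. Of 39 genes of cartilage and small leucine-rich matrix 21 were higher with Nkx2.2, 53.8% against 19.2% over all genes, and 4 (Has2, Lox, Loxl2 and Cd44) were higher with Zfp488. The median was -0.57, and it ranged from -0.98 to -0.57 over the alternatives. Acan, aggrecan, the large proteoglycan of cartilage and perineuronal nets, stood at 2161, 3027, 2563 and 3832 CPM with Nkx2.2 and at 842, 908, 1507 and 1204 CPM with Zfp488. Col2a1, cartilage collagen, stood at 1108, 1177, 454 and 1298 CPM against 175, 295, 196 and 158 CPM, and the link protein Hapln1 at 523, 586, 375 and 619 CPM against 197, 179, 189.6 and 128 CPM. None of the 3 overlapped, though Nkx2.2 replicate 3 was the lowest Nkx2.2 library for Col2a1 and Hapln1. Their differences were -1.38 ± 0.16, -2.23 ± 0.27 and -1.59 ± 0.19. Fmod, fibromodulin, and Mia, a small secreted protein of cartilage and melanoma whose upstream window is shown above, were further apart, at 44.1, 58, 22.6 and 90.1 against 2.11, 3.12, 2.45 and 3.54 CPM and 46.8, 31.3, 23.7 and 59.1 against 2.61, 2.15, 2.42 and 1.61 CPM. Has2, the hyaluronan synthase, went against the list, at 77.5, 81.1, 47.7 and 42.5 CPM with Zfp488 and 12.9, 13.5, 10.1 and 8.06 CPM with Nkx2.2 (2.46 ± 0.08, adjusted p = 5.78e-06). The control, at 91.7, 70.8, 45.6 and 36.9 CPM, lay with Zfp488.

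Collagens, laminins and glycoproteins had no common direction. Of 51 tested 22 (43.1%) were higher with Zfp488 and 19 (37.3%) higher with Nkx2.2, against 21.1% and 19.2% over all genes. With library totals the counts were 19 and 22. Higher with Zfp488 were Nid2, a basement membrane linker, at 1242, 2039, 1732 and 3155 CPM against 408, 712, 658 and 744 CPM, the anchoring fibril collagen Col7a1 at 28.9, 30.4, 14.9 and 37.6 CPM against 5.54, 7.19, 3.7 and 6.95 CPM and Col20a1 (1.38 ± 0.06). Each kept its groups apart. Fbln1, a fibulin, was higher with Nkx2.2, at 47.1, 54.2, 65.8 and 56.6 CPM against 19.5, 23.7, 27.3 and 26.9 CPM (-1.2 ± 0.07, adjusted p = 2.42e-05). Among integrins and matrix proteases 25 of 49 (51%) were higher with Zfp488 and 12 (24.5%) higher with Nkx2.2. The median was 0.3, and with library totals the counts were 24 and 17. Itgb8, an integrin that activates latent TGF-beta, stood at 49.6, 45.8, 28.3 and 58.7 CPM against 13.1, 11.3, 7.99 and 11.7 CPM, and Adamts1 is described above. Mmp15, a membrane-bound metalloprotease, stood at 423, 324, 344 and 323 CPM with Nkx2.2 and at 177, 146, 149 and 153 CPM with Zfp488. Of 20 markers of fibroblasts, pericytes and endothelium listed 10 were tested, and 40% were called, against 40.3% over all genes. Of them 2 were higher with Zfp488 (Col3a1, 3.03 ± 0.21, and Postn, 2.08 ± 0.27) and 2 higher with Nkx2.2 (Fn1, -1.4 ± 0.13, and Vwf). With library totals the counts were 2 and 4. Pecam1, Cdh5, Cldn5, Pdgfrb and Dcn were among those not tested. Their summed level was 117 to 164 CPM with Zfp488, 124 to 204 CPM with Nkx2.2 and 98.8 to 124 CPM in the control, and their part in the matrix values was not tested.

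Of 46 Wnt pathway genes 37 (80.4%) were called, against 40.3% over all genes. Of the 46, 24 (52.2%) were higher with Nkx2.2 and 13 (28.3%) higher with Zfp488, against 19.2% and 21.1% over all genes. The median was -0.28, and without the block the counts were 18 and 9. Among secreted ligands, Wnt11 stood at 10.4, 11.7, 3.64 and 10.4 CPM with Nkx2.2 and at 0.469, 0.363, 0.292 and 0.594 CPM with Zfp488 (-4.36 ± 0.21, adjusted p = 1.92e-05). Rspo2, which amplifies Wnt signals, went the other way, at 61, 56.4, 38.4 and 48.7 CPM with Zfp488 and 15.8, 12.8, 8.27 and 12.1 CPM with Nkx2.2 (2.08 ± 0.08). Both kept their groups apart. Among secreted inhibitors, Wif1, whose upstream window is shown above, stood at 79.1, 72.8, 54.7 and 94.4 CPM against 6.47, 6.2, 4.38 and 4.7 CPM, and Frzb at 209.9, 475, 565 and 477 CPM against 80, 90, 166 and 67.6 CPM. The coreceptor Lrp5 stood at 231, 227, 143 and 227 CPM against 56.3, 62.1, 55.2 and 55.1 CPM. Tle2, a corepressor of the Groucho family, stood at 107, 108, 91.8 and 130.1 CPM against 11.3, 16, 25.5 and 17 CPM (-2.69 ± 0.21, adjusted p = 8.33e-05), without overlap. Axin2, a target gene of the pathway, differed by -0.49 ± 0.09 in the same direction.

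Of 47 BMP and TGF-beta genes 19 (40.4%) were higher with Nkx2.2 and 12 (25.5%) higher with Zfp488, against 19.2% and 21.1% over all genes. The median was -0.1. Counts were 14 and 6 without the block, and 14 and 7 without the libraries of replicate 2. The ligand Bmp7 stood at 103, 95.2, 93.2 and 116 CPM with Nkx2.2 and at 30.9, 33.3, 54.2 and 31.4 CPM with Zfp488, with Zfp488 replicate 3 nearest to the other group. Its target genes Id2 (-0.85 ± 0.09) and Id4 (above) and the extracellular antagonist Smoc1 (-0.83 ± 0.08) were higher with Nkx2.2 too. Of 26 Notch genes 11 (42.3%) were higher with Nkx2.2 and 6 (23.1%) higher with Zfp488, against the same shares over all genes. The median was -0.21. Counts were 5 and 3 without the block, and 6 and 4 without the libraries of replicate 2. The receptor Notch1 stood at 601, 729.9, 572 and 643 CPM against 368, 482, 439.7 and 466 CPM, without overlap (-0.54 ± 0.08, adjusted p = 0.00113). Its targets Hes1 (-1.0 ± 0.11) and Hes5 (-1.9 ± 0.24) reached at most 14.1 and 6.8 CPM in these libraries. Numbl, an antagonist of the pathway, was higher with Zfp488 (0.62 ± 0.07). Of 20 hedgehog genes 6 were higher with Nkx2.2 and 4 (Gli3, Scube1, Disp1 and Gli2) higher with Zfp488, shares of 30% and 20% against 19.2% and 21.1% over all genes. With library totals the counts were 10 and 3, and the call of Gli2 was lost under 5 of the 12 alternatives. The coreceptor Boc stood at 37.7, 35.5, 12.5 and 33.9 CPM with Nkx2.2 and at 1.44, 1.48, 0.729 and 2.01 CPM with Zfp488 (-4.38 ± 0.14, adjusted p = 3.55e-06). Ptch1, receptor and target of hedgehog, stood at 305, 271, 177 and 258 CPM against 137, 94.9, 95.7 and 79.7 CPM and 245, 208, 191 and 239 CPM in the control, the control lying near Nkx2.2. Scube3 (-2.64 ± 0.11), which helps release the ligand, and Disp2 (-1.87 ± 0.2) were higher with Nkx2.2, in contrast to Scube1 and Disp1.

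Of 56 receptor tyrosine kinase genes 24 (42.9%) were higher with Zfp488 and 16 (28.6%) higher with Nkx2.2. Over all genes these shares were 21.1% and 19.2%, so both directions exceeded them. The lean to Zfp488 in counts was absent with library totals, 18 against 20. Counts were 12 and 8 without the block, and 16 and 10 or 15 and 13 without the libraries of replicate 2 or 4. Ligands of the EGF receptor family differed in both directions. Areg, amphiregulin, stood at 3.18, 4.45, 2.13 and 3.82 CPM with Zfp488 and at 0.0943, 0.328, 0.094 and 0.181 CPM with Nkx2.2, and Btc, betacellulin, at 5.8, 8.21, 3.94 and 9.42 CPM against 0.519, 0.633, 0.909 and 0.785 CPM. Hbegf was higher with Zfp488 as well (1.17 ± 0.12). Tgfa stood at 352, 314, 301 and 373 CPM with Nkx2.2 and at 209, 156, 167 and 126 CPM with Zfp488 (-1.04 ± 0.13, adjusted p = 0.000655). None of these groups overlapped. The binding proteins of insulin-like growth factors were also split, with Igfbp3 at 124, 114, 40.1 and 89.8 CPM with Zfp488 against 14.7, 15.5, 10.5 and 12.9 CPM, and Igfbp5, given above, higher with Nkx2.2.

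Guidance and adhesion genes differed in both directions. Of 70 axon guidance genes 21 (30%) were higher with Zfp488 and 22 (31.4%) higher with Nkx2.2, against 21.1% and 19.2% over all genes. The median was -0.06, and without the block the counts were 12 and 13. The repellents Slit2 and Slit3 were both higher with Zfp488, Slit2 at 38.3, 39.9, 28.7 and 33.7 CPM against 7.97, 8.72, 3.48 and 6.52 CPM and Slit3 at 2.47 ± 0.13. Sema3c, a secreted semaphorin whose upstream window is shown above, stood at 256, 298, 130.4 and 255 CPM against 81.6, 111, 41 and 92.4 CPM, and its receptor Nrp1 at 6.77, 4.55, 7.55 and 10.3 CPM against 1.2, 0.82, 1.19 and 1.42 CPM. All 4 kept their groups apart. Of 61 adhesion genes 28 (45.9%) were higher with Zfp488 and 16 (26.2%) higher with Nkx2.2. The median of 0.1 turned to -0.03, and the counts to 21 and 21, with library totals, and without the block they were 11 and 13. Nrcam, a cell adhesion molecule of the node, stood at 115, 131, 69.8 and 159 CPM with Zfp488 and at 16.8, 24.6, 22.5 and 26 CPM with Nkx2.2 (2.37 ± 0.17, adjusted p = 6.65e-05). Gja1, connexin 43, was higher with Zfp488 (2.43 ± 0.28), in contrast to Gjb1. The cadherins Cdh13 and Cdh4 were higher with Nkx2.2, Cdh13 at 101, 83.1, 78.9 and 102 CPM against 36.2, 37.9, 30.9 and 42.4 CPM and Cdh4 at -1.94 ± 0.12.

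Ion channels leaned to Nkx2.2, with 24 of 59 (40.7%) higher against 12 (20.3%) higher with Zfp488 (median -0.26). Over all genes these shares were 19.2% and 21.1%. The calcium channel Cacna1e stood at 5.66, 3.66, 0.815 and 2.57 CPM with Nkx2.2 and at 0.235, 0.145, 0.117 and 0.113 CPM with Zfp488, and the potassium channel Kcnk2 at 2.92, 1.1, 0.47 and 0.996 CPM against 0.168, 0.0242, 0.0292 and 0.0283 CPM. Counts were small here with Zfp488, and the groups did not overlap. On the side of Zfp488, the sodium channel Scn1a stood at 16.3, 30.9, 44.9 and 46.6 CPM against 5.45, 4.73, 5.55 and 7.88 CPM (2.48 ± 0.21, adjusted p = 0.000123) and Kcna4 differed by 2.18 ± 0.16. Of 23 receptors for lysophospholipids and purines 8 (34.8%) were higher with Zfp488 and 10 (43.5%) higher with Nkx2.2 (5 and 6 without the block). Among them were Lpar3, the ADP receptor P2ry1 at 92, 86.8, 129.5 and 98.2 CPM with Zfp488 against 45.6, 32, 38.7 and 37.8 CPM, and S1pr2 (-0.69 ± 0.06). Of 35 glutamate and GABA genes 11 (31.4%) were called in each direction (6 and 8 without the block). Gabbr2, a subunit of the GABA-B receptor, was higher with Zfp488, at 113, 172, 90.6 and 145 CPM against 34, 77.6, 37.9 and 44.5 CPM. Of 20 granins and neuropeptides 5 (25%) were higher with Zfp488, with Adm the furthest apart, and 6 (30%) higher with Nkx2.2. With library totals the counts were 3 and 8. Of 18 neuronal markers listed 16 were tested, and 43.8% were called, against 40.3% over all genes. Of these markers 3 were higher with Zfp488, Tubb3 the furthest apart, and 4 higher with Nkx2.2 (1 and 2 without the block). Their summed level was 679 to 916 CPM with Zfp488, 585 to 629 CPM with Nkx2.2 and 509 to 832 CPM in the control. Their part in the channel and receptor values was not tested.

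Stress genes were called at a share near that over all genes. Of 38 genes that answer amino acid or protein folding stress, 12 were higher with Zfp488 and 5 (Slc7a5, Psph, Pdia4, Pdia6 and Phgdh) higher with Nkx2.2. In all 44.7% were called, against 40.3% over all genes. The median of 0.1 turned to -0.03, and the counts to 10 and 8, with library totals (7 and 3 without the block). Atf3, a stress-induced transcription factor, stood at 71.8, 107, 40.1 and 96.2 CPM with Zfp488 and at 22.5, 30.9, 14.4 and 22.2 CPM with Nkx2.2, and Chac1, which degrades glutathione, at 28.6, 62.1, 66.9 and 79.8 CPM against 11.5, 16.9, 28.9 and 20.3 CPM. Atf4, the central factor of the response, differed less, at 459, 460.1, 428 and 465 CPM against 307, 315, 341 and 327 CPM (0.49 ± 0.07, adjusted p = 0.000994). The groups overlapped in Chac1 alone of the 3, by Zfp488 replicate 1 and Nkx2.2 replicate 3. Of 47 interferon and MHC class I genes 21 (44.7%) were higher with Zfp488 and 7 (14.9%) higher with Nkx2.2. Over all genes these shares were 21.1% and 19.2%. The median was 0.35. Counts were 15 and 4 without the block, and 12 and 5 without the libraries of either replicate 2 or 4. B2m, beta-2 microglobulin, which pairs with MHC class I chains, stood at 283, 322, 242 and 321 CPM against 163, 192, 169.5 and 192 CPM, Mx2 differed by 1.5 ± 0.11 and Ifit2 by 1.62 ± 0.21. RT1-S3, a nonclassical MHC class I gene, went the other way, at 24.9, 22.2, 15.9 and 25.7 CPM with Nkx2.2 against 8.65, 7.04, 8.66 and 7.55 CPM (-1.46 ± 0.15). RT1 genes are close copies of each other, so reads may be split between them. Of 34 genes of iron handling and the acute phase 7 (20.6%) were higher with Zfp488 and 9 (26.5%) higher with Nkx2.2. Without the block the counts were 6 and 4. Those higher with Nkx2.2 included Lcn2, Scara5, the ferrireductase Steap3 (-0.85 ± 0.08) and the transferrin receptor Tfrc (-0.83 ± 0.13). The call of Tfrc was lost without the block (adjusted p 1.94e-08 to 0.0539 over the alternatives, highest without it).

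Markers of astrocytes and microglia bear on the identity of the cultures. Gfap, the astrocyte filament protein, was high and varied with the replicate number, at 1214, 1608, 345 and 875 CPM with Zfp488 and 1272, 2131, 178 and 1162 CPM with Nkx2.2. Replicate 3 was lowest in both groups, and no difference was called (0.01 ± 0.21, adjusted p = 0.975). Its sign turned without the block, with library totals and without the libraries of replicate 3, and in the last of these it was called, at -0.3 (adjusted p = 0.0329, 0.0329 to 0.978 over the alternatives). Of 11 astrocyte markers tested of 15 listed, 4 (36.4%) were higher with Zfp488 and 4 (36.4%) higher with Nkx2.2. Over all genes these shares were 21.1% and 19.2%. Without the block the counts were 3 and 4. Gja1 and Agt (-1.63 ± 0.22) stood on opposite sides. The summed level was 1975 to 2958 CPM with Zfp488 and 2231 to 4026 CPM with Nkx2.2. Aqp4, Gjb6, Slc39a12 and Acsbg1 were not tested. Of 15 microglia markers 5 were tested, and 60% were called, against 40.3% over all genes. Laptm5, P2ry12 and Cd68 (-0.73 ± 0.17) were higher with Nkx2.2, at no more than 1.72, 5.38 and 7.48 CPM. The call of Cd68 was lost without the block and without the libraries of replicate 2 (adjusted p 0.0016 to 0.069 over the alternatives), and that of P2ry12 without the block (adjusted p 0.000804 to 0.052). Without the block 1 of the 5 was called, and 4 with library totals, all higher with Nkx2.2. The other 10, among them Aif1, Cx3cr1, Tmem119 and Trem2, were not analysed here.

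The control libraries place these differences. Of the genes called higher with Zfp488, 71% had a control mean between the groups, 14.2% above both and 14.8% below both. Of those higher with Nkx2.2, 70.1% had it between, 11.9% above and 18% below. At a log2 difference of at least 1 the control lay nearer to Nkx2.2 in 57.4% of the genes higher with Zfp488, and nearer to Zfp488 in 80.7% of the genes higher with Nkx2.2. In the latter, 36.5% had a control below both groups. All 4 control libraries lay between the groups, with no overlap, in 109 genes higher with Zfp488 and 73 higher with Nkx2.2.

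Among those genes Lipa, the acid lipase of lysosomes, stood at 93.1, 129, 106 and 134 CPM with Nkx2.2, 199, 187, 157 and 255 CPM in the control and 435, 850.1, 419.8 and 997 CPM with Zfp488 (2.46 ± 0.15, adjusted p = 3.11e-05). Abcb1b stood at 6.37, 6.51, 9.37 and 9.9, then 25.4, 21.7, 20.2 and 28.1, then 58, 68.3, 47.9 and 94 CPM in the same order. Adm and Sod3 lay alike, as did Mrgprf (2.83), Xirp1 (2.71) and the kinase Prkcd (2.59). In the opposite order, Smpd3 stood at 6.9, 6.29, 7.06 and 7.41 CPM with Zfp488 and 10.9, 9.43, 9.13 and 9.42 CPM in the control, both far below Nkx2.2. Pgc had its control at 15.3, 10.1, 9.9 and 19.6 CPM and Apod at 75.9, 61.4, 65.8 and 73.4 CPM. Scube3, Ncmap, Slitrk1 (-2.26), Zfp385b (-2.45) and Nkx2-2 itself followed. For Smpd3 the step from Zfp488 to the control was small beside the step to Nkx2.2, whereas for Apod the control lay nearer the middle on the log scale. These genes were chosen for this order, so it is a description, and no test of either factor against the control was made.

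**Figure D5:**
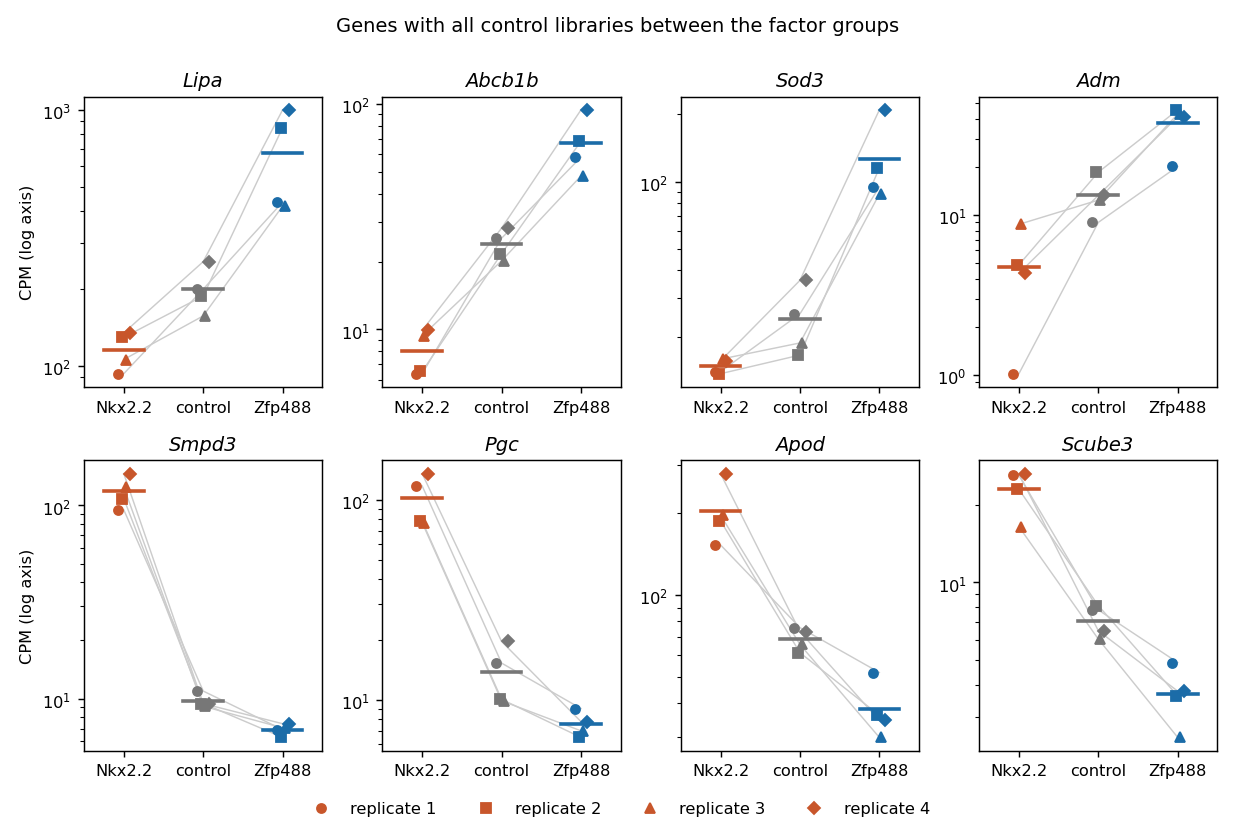
Levels in CPM on log axes of 8 genes whose 4 control libraries all lie between the Nkx2.2 and Zfp488 libraries. Each point is a library, its shape gives the replicate number, grey lines join equal numbers and bars are group means. The upper row is higher with Zfp488, the lower row higher with Nkx2.2.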

How the data were processed

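Total RNA was sequenced and, per the submitters' processing notes, trimmed with Trimmomatic 0.36, aligned with STAR 2.5.2b and counted with featureCounts of Subread 1.5.2 on rn6. Which annotation release and strand setting were used is not given in the sources used here. The deposited values of the authors are raw counts per gene, and gene names came from tables deposited with them. Of 14489 genes tested, 60 had no name, 8 of them called, and 184 identifiers shared a symbol. Overlapping, antisense and near-identical genes may share reads.

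The quasi-likelihood test of edgeR 4.0.16 was run on the counts under R 4.3.3 (filterByExpr, TMM, group plus replicate block, Benjamini-Hochberg adjustment, two-sided). Libraries of the same number deviated together from their group means, with r of 0.572, 0.286, 0.571 and 0.283 over genes against -0.577 to 0.285 for different numbers. Replicates of a group differed by far more than counting noise. Pair differences are log2 CPM with a prior count of 2. Counts were also simulated for 14255 genes. In them 67, 67 and 66 genes were changed by 0.5, 1 and 2 on the log2 scale, the others not. The fit recovered 49.3%, 85.1% and 98.5% of these changes, with 14 false calls of 169. In the data 40.3% of genes were called, so these rates need not hold there.

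The libraries were found by title, but this comparison, its members and the gene lists were chosen with earlier results of these data known. Genes were named by fixed rules: a panel of 12, the 12 largest differences per direction at 5 CPM or more without overlap, up to 4 called members per list by adjusted p, the 10 smallest adjusted p per direction at 50 CPM or more, the 8 strongest replicate genes, and 8 per direction with the control between. The text gives a part of these, some results are not reported here, and the others it names were chosen after their values were seen, among them Mag, Opalin, Gjb1, Col2a1, Acan, Tle2 and all genes named to account for a small count. The 12 alternatives were no block, RLE size factors, library totals, no filter, DESeq2 1.42.0, a fit with the control libraries, thinning to the smallest library, each replicate number left out, and the introduced genes left out.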

Additional observations from a re-analysis of the deposited data

Results flagged for a closer look

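In the groups of 4 libraries behind the 216 genes named above, 36 of 648 groups (5.56%) held a library far from the other 3. Chance gives this in about 1 in 20 groups. All values are CPM, with the range of the other 3 libraries of the group in brackets.

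Nkx2.2 replicate 3 stood apart in 10 genes, Boc at 12.5 (33.9 to 37.7), Car9 at 5.83 (0.0943 to 0.785), Hes5 at 6.8 (1.37 to 1.99), Insig1 at 493 (204 to 250.03), Lrp5 at 143 (227 to 231), Olig1 at 509 (318 to 347), Prx at 56.7 (20.9 to 26.8), Scap at 159 (183 to 185), Tspan2 at 155 (63.7 to 77) and Wnt11 at 3.64 (10.4 to 11.7). Zfp488 replicate 1 stood apart in 7 genes, Adm at 20.2 (41.3 to 45.6), Apoe at 30.7 (15.9 to 17.9), Cd68 at 5.87 (3.17 to 3.4), Igfbp5 at 34.3 (18.3 to 21), Kcnk2 at 0.168 (0.0242 to 0.0292), Scara5 at 0.637 (0.283 to 0.292) and Sox5 at 6.6 (4.61 to 4.93). These are the 2 libraries that lay closest to the other factor on the leading principal component.

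Nkx2.2 replicate 1 did so in Agt at 20.5 (29.4 to 30.4) and Xirp1 at 1.82 (2.16 to 2.2). Nkx2.2 replicate 4 did so in Espl1 at 48.4 (62.5 to 64.2) and Top2a at 132 (175 to 183). Zfp488 replicate 3 did so in Adam11 at 760.1 (187 to 259), Bmp7 at 54.2 (30.9 to 33.3), Cdo1 at 5.6 (4.02 to 4.21) and Prx at 69.8 (40.2 to 41.8). Zfp488 replicate 4 did so in Cdh19 at 62.7 (46.8 to 47.5) and Smoc1 at 46.5 (52.6 to 53.7). Control replicate 1 did so in Btc at 1.49 (1.29 to 1.32), Pllp at 0.90 (0.508 to 0.542) and Smpd3 at 10.9 (9.13 to 9.43). Control replicate 2 did so in Laptm5 at 0.839 (0.316 to 0.398). Control replicate 3 did so in Adssl1 at 0.452 (0.103 to 0.152), Baalc at 2.85 (6.65 to 6.99), Nfasc at 3379 (1996 to 2184) and Tspan2 at 266 (168 to 179.9). Control replicate 4 did so in Nov at 85.1 (5.9 to 12.6).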

How the results depend on the processing

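With the replicate block left out, 3294 genes were called, 1766 higher with Zfp488 and 1528 higher with Nkx2.2, and of the 208 called genes named in the text 40 lost the call. They were Bmp4, Car9, Ccnd2, Cd44, Cd68, Cd9, Cdca5, Cdk2, Cdkn1a, Cldn11, Cnp, Ctsl, Egr2, Fen1, Fn1, Gal3st1, Gli2, Hk1, Il33, Mag, Mipep, Mobp, Mog, Mvk, Ncaph, Ndufs4, Nfasc, Opalin, P2ry12, Pdgfra, Pdia6, Phgdh, Pllp, Ppp1r16b, Prx, Rbl1, Scap, Sox10, Tfrc and Vegfa. Scaling by library totals, chosen after the data were seen, gave 1981 genes higher with Zfp488 and 4688 higher with Nkx2.2, so that 29.7% of the calls were higher with Zfp488 in place of 52.3%. Leaving out both libraries of a replicate number gave 3383 to 6348 called genes, 1844 to 3240 higher with Zfp488 and 1539 to 3108 higher with Nkx2.2, the lowest without replicate 2 in each case and 1797 higher with Nkx2.2 without replicate 4. The count of genes that differed between replicate numbers was 449 to 1761 in these fits, 449 without replicate 1, 727 without replicate 3, and 2618 with no filter on low counts. Called genes with a log2 difference of at least 1 numbered 1071 to 1513 over the alternatives. Of the named called genes 166 kept the call and sign under all 12 alternatives. Signs turned in 3 of the genes named, none called in the paired fit. These were Gfap (-0.23 without the block, -0.12 with library totals, -0.3 to 0.16 when a replicate number was left out, lowest without replicate 3), Enpp6 (-0.07 with library totals, -0.14 to 0.18 when a number was left out, lowest without replicate 1) and Plekhb1 (0.01 without the block and with no filter, 0 with RLE, DESeq2 and 12 libraries, -0.06 to 0.06 when a number was left out, above 0 without replicates 2 and 4). The cause was not tested.

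With 4 pairs, changes of 0.5 on the log2 scale were recovered in 49.3% of simulated cases. Few genes were changed in that simulation, so the share need not hold in the data. An uncalled gene is not shown to be alike in both groups. Genes of a few counts per library, such as Kcnk2 with Zfp488, are measured with low precision.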
